A study of Homo sapiens with 6 samples.

Results

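AP-1 is a family of dimeric transcription factors. The 10 genes followed here, FOS, FOSB, FOSL1, FOSL2, JUN, JUNB, JUND, ATF3, MAFF and MAFK, were taken by their symbols from the 38100 genes of the deposited tables, and all 10 were found and passed the filter on low counts, as did 17720 genes in all. The choice by symbol sets no threshold on a measured value. However, the 10 genes and the related gene lists used below were chosen with earlier results of these data known. Counts set beside the share over all genes are therefore descriptive and no independent test. The cells are HK2, an established human line of kidney proximal tubular epithelial cells. RNA was sequenced from HK2 cells that had received control adenovirus with an empty vector (AdCtrl+TGF) or adenovirus carrying SIRT4 (AdSirt4+TGF), with 3 samples in each group. Both groups were wild type and both were stimulated with TGF-β1, a profibrotic cytokine, so each group carries a virus and the cytokine. Cells without TGF-β1 or without virus were not analysed here, and no response to either can be read from the comparison. The question of the comparison is which transcripts differ when the deacylase SIRT4 is overexpressed in stimulated tubular cells. The study states that n stands for technical replicates in vitro. If that covers the sequenced samples, the SDs and p-values describe only the spread between these samples, which may be technical.

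AP-1 proteins carry a basic leucine zipper (bZIP), with which FOS proteins pair with JUN proteins, and JUN proteins also pair with each other, on short palindromic DNA sites. FOS, FOSB, JUN and JUNB are classical immediate early genes, switched on within minutes of growth factors, cytokines, virus or stress through MAP kinases and then shut off quickly, and FOSL1 and FOSL2 usually follow later. ATF3 is a stress-induced relative that pairs with JUN proteins, and MAFF and MAFK are small MAF proteins, which lack an activation domain and work through their partners. In kidney tubules, AP-1 is known as a part of the injury response and of TGF-β signaling, where JUN and SMAD proteins meet on shared target genes.

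Promoters of AP-1 genes are textbook examples of control by bZIP factors, through sites that CREB, ATF and JUN proteins bind, so upstream sequences are shown for the 4 genes with unadjusted p under 0.05 that have an entry in the promoter table, FOSB, JUN, ATF3 and MAFF, and, for contrast, for FOS and JUNB. Sequences are from RefSeq on GRCh38.p14, 150 bases up to the base before the gene start, read 5′ to 3′ on the gene's own strand. Capitals mark a cyclic AMP response element (CRE, TGACGTCA), a CRE variant (TGACATCA) or the core of a CRE (TGACG).
FOS: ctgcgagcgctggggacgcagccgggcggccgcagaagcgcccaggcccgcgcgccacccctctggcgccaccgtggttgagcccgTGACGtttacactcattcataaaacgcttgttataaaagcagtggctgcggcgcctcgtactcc
FOSB: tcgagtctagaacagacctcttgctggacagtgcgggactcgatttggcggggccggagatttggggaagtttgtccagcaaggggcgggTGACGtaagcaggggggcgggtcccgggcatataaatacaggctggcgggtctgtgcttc
JUN: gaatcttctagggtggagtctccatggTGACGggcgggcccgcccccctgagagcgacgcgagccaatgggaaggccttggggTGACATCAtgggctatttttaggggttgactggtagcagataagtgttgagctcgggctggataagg
JUNB: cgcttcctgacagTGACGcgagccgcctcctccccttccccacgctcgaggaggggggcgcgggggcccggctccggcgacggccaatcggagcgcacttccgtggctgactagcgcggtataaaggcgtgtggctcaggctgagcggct
ATF3: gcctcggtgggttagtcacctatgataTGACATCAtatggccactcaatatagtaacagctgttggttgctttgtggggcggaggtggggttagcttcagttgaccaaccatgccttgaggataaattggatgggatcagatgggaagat
MAFF: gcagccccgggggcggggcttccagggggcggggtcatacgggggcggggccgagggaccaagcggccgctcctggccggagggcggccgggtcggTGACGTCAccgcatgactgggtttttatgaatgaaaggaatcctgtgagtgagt

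These stretches lie at chr14:75278678-75278827 (plus strand) for FOS, chr19:45467846-45467995 (plus strand) for FOSB, chr1:58784048-58784197 (minus strand) for JUN, chr19:12791336-12791485 (plus strand) for JUNB, chr1:212565257-212565406 (plus strand) for ATF3 and chr22:38201844-38201993 (plus strand) for MAFF. Motifs were searched on both strands in the 250 bases before each start. The promoter table held 8 of the 10 genes, with 10 starts, and no entry for FOSL1 and MAFK. The CRE core, searched as TGACG or CGTCA, was found in 7 of the 8 genes and in 21.2% of all 35116 promoters. It began 64 bases before the start in FOS, 60 in FOSB, 123 in JUN and 137 in JUNB. FOSL2 held it at 66 and 201 bases and JUND at 86 and 200 bases, while ATF3 held none. A full CRE was found at 54 bases in MAFF and at 200 bases in JUND, where it contains the core, and in 1.65% of all promoters. JUN and ATF3 instead held the CRE variant, searched as TGACATCA or TGATGTCA, at 67 and 123 bases, against 2.37% of all promoters. The letters TATAAA were found in FOS, FOSB, JUNB and ATF3 and in 6.8% of all promoters. In ATF3 they lay 230 bases before another start than the one shown, whose stretch does not hold them. A gene was counted if any of its starts held the motif, while the shares of all promoters count single starts. None of the 8 genes held the consensus AP-1 site (TGAGTCA or TGACTCA, 4.2% of all promoters) or a CArG box (1.16%) in this window. A match is a run of letters and does not show that a factor was bound in these cells.

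The libraries held between 41537353 and 85684748 counted reads. SIRT4 was counted 31, 47 and 57 times in the AdCtrl+TGF samples and 1996, 7995 and 6827 times in the AdSirt4+TGF samples, as the labels say, and the counts do not separate the viral from the cells' own transcript. Of 18 markers of tubular epithelium, 10 exceeded 10 CPM (counts scaled to library size by TMM), among them PAX8, CDH6 and the keratins, while CDH1, LRP2, CUBN, AQP1, SLC34A1 and ANPEP, which mark differentiated tubular cells, were under 1 CPM. Their summed level was 2936 to 3027 CPM in AdCtrl+TGF and 2805 to 3180 CPM in AdSirt4+TGF. The 7 endothelial markers were all under 1 CPM, as were 5 of 8 fibroblast and 6 of 8 immune markers, and CD3E, MS4A1 and COL3A1 were not counted in any sample. Summed fibroblast markers reached 43.6 to 46.8 CPM against 42.1 to 42.4 CPM, and summed immune markers 34.5 to 40.0 CPM against 38.7 to 49.5 CPM, with CD68 as the one immune marker over 10 CPM. No marker of the 4 lists had an unadjusted p under 0.05. AdSirt4+TGF replicate 1 stood apart from all other samples: across 14102 genes its deviation from its group mean had a Spearman correlation of -0.71 with gene length, against -0.24 to 0.25 in the AdCtrl+TGF samples. Replicates 2 and 3 of its group, measured from the same mean, had 0.64 and 0.66. Short transcripts were thus relatively higher and long ones lower in this library, and values without it are given beside many of the results.

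Of the 10 AP-1 genes, 6 were higher in every AdSirt4+TGF sample than in any AdCtrl+TGF sample, by folds of 1.26 to 1.66, and the other 4 overlapped between the groups. The log2 fold change was above 0 for all 10, but for 9 in 13 of the 18 alternative fits, in which FOSL2 or JUNB lay below 0. It ran from 0.0025 for FOSL2 to 0.73 for FOSB, with a median of 0.38, against a median of 0.021 over all 17720 genes tested. The 6 genes FOSB, FOSL1, JUN, ATF3, MAFF and MAFK had an unadjusted p under 0.05, all in the direction of AdSirt4+TGF, where 4.43% of all genes tested had such a p in that direction and 3.50% in the other. The same 6 genes were those whose 3 AdSirt4+TGF samples all lay above the 3 AdCtrl+TGF samples, which held for 9.66% of all genes. None of the 10 had an adjusted p under 0.05 (edgeR's quasi-likelihood test with Benjamini-Hochberg adjustment), a threshold that 0.0113% of all genes passed. FOSB, FOSL1, MAFF and MAFK had an unadjusted p under 0.05 in all 18 alternative fits, ATF3 in 16 and JUN in 14. These fits reuse the same samples and are not independent, and the share of all genes passing in as many fits was not computed. The 6 genes had an adjusted p under 0.05 with limma voom and sample quality weights, where 4.37% of all genes were called higher. DESeq2 gave an adjusted p under 0.05 to FOSB, MAFF and MAFK, all higher in AdSirt4+TGF, where 0.711% of all genes were called higher and 0.485% lower. A 2-sided exact permutation test of 3 against 3 samples cannot give a p below 0.1, and it gave 0.1 for each of the 6 genes. In bulk RNA, more cells that express a gene and more RNA per cell cannot be told apart.

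**Figure D1:**
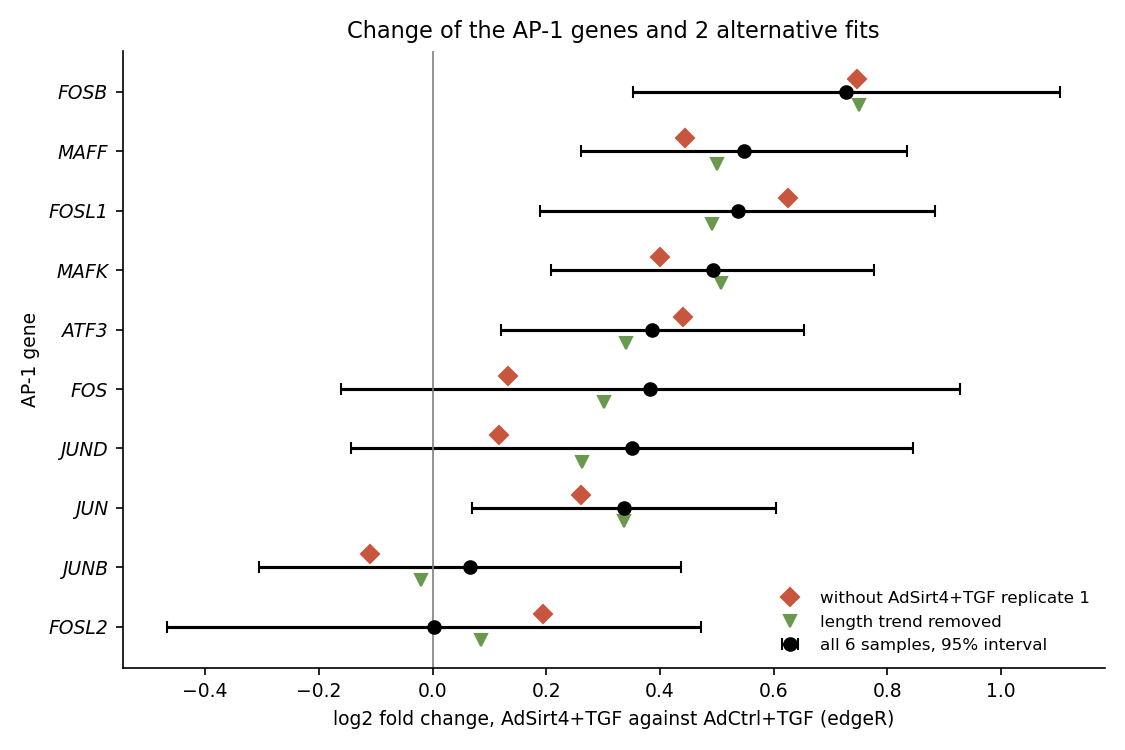
Log2 fold change (x axis) of each AP-1 gene (y axis) between AdSirt4+TGF and AdCtrl+TGF, with black points and 95% intervals from edgeR on all 6 samples, green triangles with the length trend of each library removed and red diamonds without AdSirt4+TGF replicate 1. The intervals of FOSB, MAFF, FOSL1, MAFK, ATF3 and JUN lie above 0, and JUNB moves from 0.066 to -0.11 without replicate 1.

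Among the FOS genes, the low-expressed FOSB and FOSL1 stood apart between the groups, while the samples of the more abundant FOS and FOSL2 overlapped. FOSB (Entrez gene 2354, chr19:45467996-45475179), which partners JUN proteins and is known for lasting induction by repeated stimuli, was at 23.2, 26.3 and 33.1 CPM in AdCtrl+TGF and at 44.1, 51.4 and 41.2 CPM in AdSirt4+TGF. The groups did not overlap, and the lowest AdSirt4+TGF sample lay well above the highest control. The means were 27.5 ± 5.08 and 45.6 ± 5.27 CPM (SD, n = 3), which is a fold of 1.66 and a log2 fold change of 0.73 with an SE of 0.16 (95% interval 0.35 to 1.10; edgeR adjusted p = 0.494, from 0.00615 to 0.971 over the alternatives). FOSL1 (Entrez gene 8061, chr11:65892049-65900545), which encodes FRA1, a FOS protein without a strong activation domain that is prominent in migrating and invasive epithelial cells, was at 13.1, 15.7 and 12.4 CPM against 17.2, 19.6 and 22.8 CPM. All 3 AdSirt4+TGF samples were higher, with the narrowest gap between 15.7 and 17.2 CPM. Its log2 fold change was 0.54 with an SE of 0.15 (95% interval 0.19 to 0.88; edgeR adjusted p = 0.498, from 0.00974 to 0.971 over the alternatives).

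FOS (Entrez gene 2353, chr14:75278828-75282230), the founding partner of JUN and the textbook immediate early gene, was at 129.6, 147.9 and 182.9 CPM in AdCtrl+TGF and at 263.3, 189.7 and 147.6 CPM in AdSirt4+TGF. The groups overlapped, since AdSirt4+TGF replicate 3 lay below 2 of the 3 controls and replicate 1 far above them. The log2 fold change was 0.38 with a 95% interval of -0.16 to 0.93 (edgeR adjusted p = 0.718). It was 0.13 without AdSirt4+TGF replicate 1 and 0.56 without replicate 3, where the unadjusted edgeR p was 0.0304 and the adjusted 0.539 (0.237 to 0.971 over the alternatives), so that 1 library decides the size of the FOS difference. FOSL2 (Entrez gene 2355, chr2:28392858-28417317), which encodes FRA2, a FOS protein known from fibrosis models, had nearly equal group means, with 312.6, 346.4 and 361.4 CPM against 241.5, 389.1 and 391.3 CPM. Here replicate 1 of AdSirt4+TGF was the lowest of all samples, and the other 2 were the highest. The log2 fold change was 0.0025 with a 95% interval of -0.47 to 0.47. Without AdSirt4+TGF replicate 1 it was 0.19, with 0.0103 as the unadjusted edgeR p and 0.0897 after adjustment (0.0897 to 0.999 over the alternatives), and its sign was negative in several other fits.

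**Figure D2:**
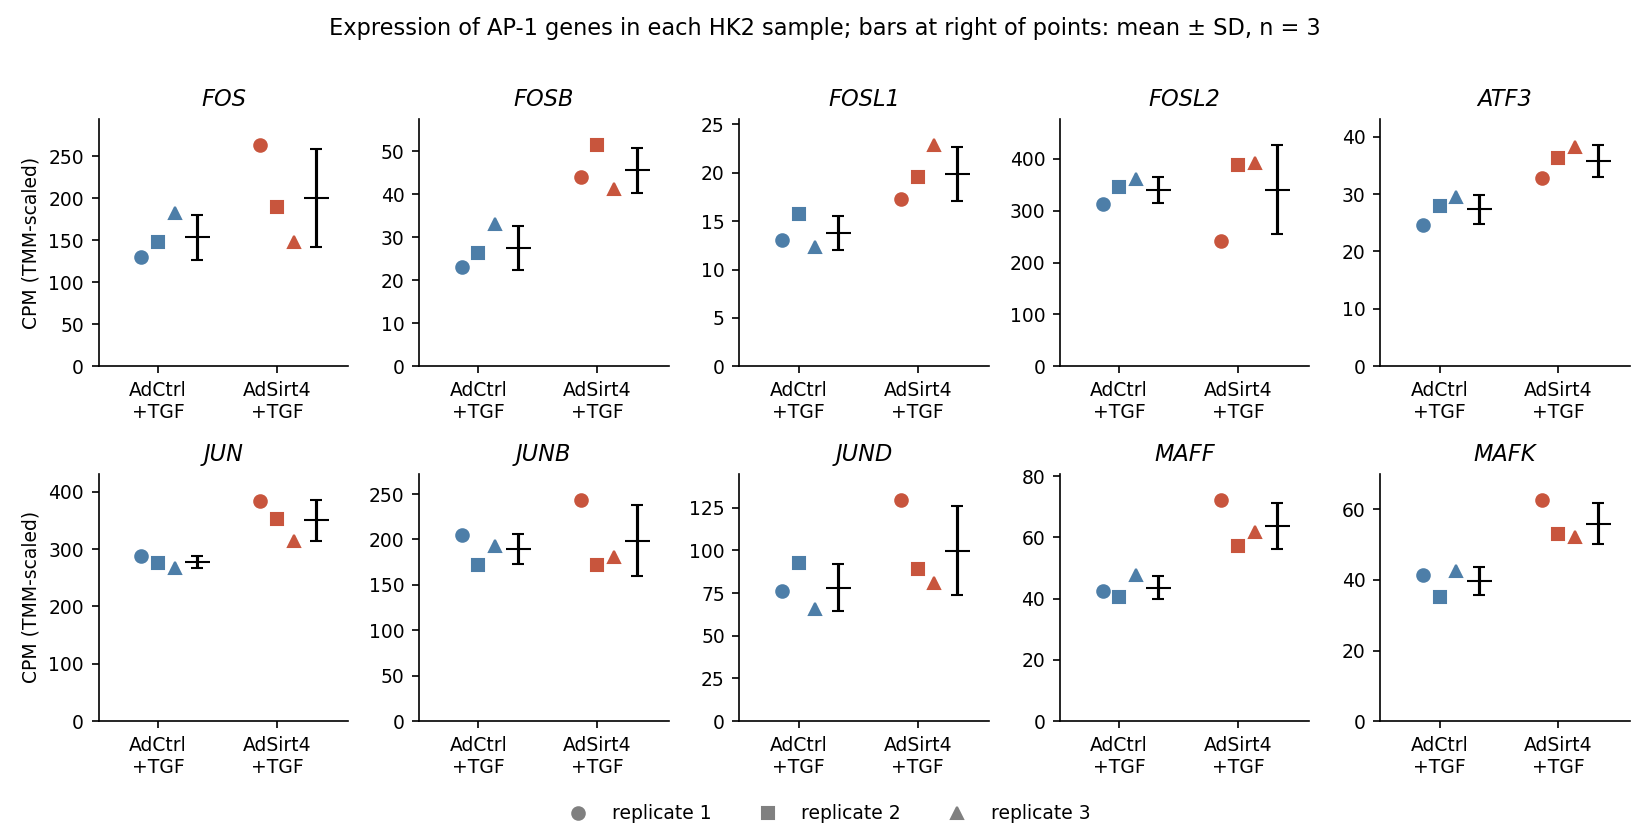
Expression of the 10 AP-1 genes in CPM scaled by TMM (y axes, starting at 0) in AdCtrl+TGF (blue) and AdSirt4+TGF samples (red), with replicate 1 as circles, 2 as squares and 3 as triangles, and the mean ± SD (n = 3) in black. Groups stand apart for FOSB, FOSL1, ATF3, JUN, MAFF and MAFK, and in FOS, JUNB and JUND the circle of AdSirt4+TGF replicate 1 is the highest point, at 263.3, 243.3 and 129.4 CPM.

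Of the JUN genes, the samples of JUN stood apart by a small margin, and those of JUNB and JUND overlapped. JUN (Entrez gene 3725, chr1:58780791-58784047), the main activator of the family and a substrate of the JNK kinases, was at 288.0, 275.6 and 267.8 CPM in AdCtrl+TGF and at 384.0, 352.6 and 313.4 CPM in AdSirt4+TGF. The control samples were tight, with a coefficient of variation of 3.67%, and all AdSirt4+TGF samples lay above them. The means were 277.1 ± 10.2 and 350.0 ± 35.3 CPM (SD, n = 3), a fold of 1.26 and a log2 fold change of 0.34 with an SE of 0.11 (95% interval 0.069 to 0.60; edgeR adjusted p = 0.576, from 0.0217 to 0.971 over the alternatives). Its unadjusted edgeR p of 0.0205 became 0.0521, 0.0689 and 0.0799 when AdCtrl+TGF replicate 1, 2 or 3 was left out and 0.0568 without AdSirt4+TGF replicate 2. Its groups stayed apart in all 18 alternatives, which adds little. Leaving out a sample can hardly make separate groups overlap, and several fits share the same scaled values. JUNB (Entrez gene 3726, chr19:12791486-12793315), a weaker activator that competes with JUN for FOS partners and is a known early target of TGF-β, was at 204.6, 171.9 and 192.8 CPM against 243.3, 171.7 and 181.1 CPM. Only AdSirt4+TGF replicate 1 exceeded the controls. The log2 fold change was 0.066 with a 95% interval of -0.31 to 0.44, and it was -0.11 without that sample and -0.021 with the length trend removed. JUND (Entrez gene 3727, chr19:18279694-18281622), the member present in most resting cells, was at 76.4, 92.6 and 65.6 CPM against 129.4, 89.3 and 80.7 CPM. Again replicate 1 of AdSirt4+TGF was highest and the others lay within the control range, and the log2 fold change of 0.35 (95% interval -0.14 to 0.85; edgeR adjusted p = 0.718) became 0.12 without it. JUN, JUNB and JUND each consist of 1 exon in the GENCODE annotation.

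ATF3 and both small MAF genes were higher in all AdSirt4+TGF samples. ATF3 (Entrez gene 467, chr1:212565407-212620777), which represses or activates stress genes depending on its partner, was at 24.6, 28.0 and 29.6 CPM in AdCtrl+TGF and at 32.8, 36.4 and 38.2 CPM in AdSirt4+TGF. Its replicates were among the least variable of the family, and the log2 fold change was 0.39 with an SE of 0.11 (95% interval 0.12 to 0.65; edgeR adjusted p = 0.531, from 0.00971 to 0.971 over the alternatives). The unadjusted edgeR p of 0.0108 was 0.0572 with the length trend removed and 0.0518 without AdCtrl+TGF replicate 1, and on the FPKM scale the groups just overlapped. MAFF (Entrez gene 23764, chr22:38201994-38216511), a stress-inducible small MAF, was at 42.4, 40.6 and 47.8 CPM against 72.1, 57.3 and 61.7 CPM. The highest control lay clearly below the lowest AdSirt4+TGF sample. The means were 43.6 ± 3.74 and 63.7 ± 7.61 CPM (SD, n = 3), a fold of 1.46 and a log2 fold change of 0.55 with an SE of 0.12 (95% interval 0.26 to 0.83; edgeR adjusted p = 0.494, from 0.00717 to 0.971 over the alternatives). MAFK (Entrez gene 7975, chr7:1530702-1543043), a small MAF that can pair with NRF2 and BACH1 on antioxidant genes, was at 41.3, 35.2 and 42.6 CPM against 62.6, 53.0 and 52.2 CPM. Here too the groups were separate, and the log2 fold change was 0.49 with an SE of 0.12 (95% interval 0.21 to 0.78; edgeR adjusted p = 0.494, from 0.0118 to 0.971 over the alternatives). Exons of MAFK overlap those of TMEM184A on the opposite strand, which was counted 799 to 1847 times. Whether counting used the strand is not given in the sources used here, so the MAFK values are uncertain.

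The third small MAF gene, MAFG, was looked up after the values of MAFF and MAFK were seen. It was at 56.7, 55.2 and 62.0 CPM in AdCtrl+TGF and at 43.9, 58.7 and 65.5 CPM in AdSirt4+TGF. The AdSirt4+TGF samples lay on both sides of the controls, and the log2 fold change was -0.047 with a 95% interval of -0.41 to 0.32 (edgeR adjusted p = 0.922). Without AdSirt4+TGF replicate 1, the lowest sample, it was 0.094. The difference between MAFG and the other small MAF genes was not tested.

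Per unit of gene length, JUNB, JUN and FOS were the most abundant AP-1 transcripts. In FPKM (fragments scaled by gene length and library size), the AdCtrl+TGF levels were 91.5 ± 9.70 for JUNB, 74.9 ± 2.58 for JUN, 64.5 ± 13.2 for FOS, 44.7 ± 4.16 for FOSL2 and 35.6 ± 5.07 for JUND (SD, n = 3). The other genes were well below these, with 16.2 ± 1.93 FPKM for MAFF, 12.3 ± 1.37 for ATF3, 9.97 ± 1.33 for MAFK, 7.13 ± 0.711 for FOSL1 and 6.59 ± 1.43 for FOSB. Neighbours in this order whose samples overlapped were JUN and FOS, FOSL2 and JUND, ATF3 and MAFK, and FOSL1 and FOSB. In AdSirt4+TGF, JUNB at 92.9 ± 13.3 FPKM and JUN at 92.2 ± 5.64 FPKM could no longer be ordered, FOS stood at 81.2 ± 19.6 FPKM, JUND at 44.1 ± 9.05 and FOSL2 at 44.0 ± 12.9. FOSB, the lowest in the controls, reached 10.6 ± 1.37 FPKM, which overlapped FOSL1 at 10.3 ± 1.86. MAFF was at 23.1 ± 1.69 FPKM, ATF3 at 15.8 ± 1.93 and MAFK at 13.4 ± 0.730. The summed level of the 10 genes was 354.3, 347.3 and 388.5 FPKM in AdCtrl+TGF and 459.3, 422.3 and 401.1 FPKM in AdSirt4+TGF, without overlap (2-sided exact permutation p = 0.1).

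The share of each gene in this pool was compared as well. The 3 JUN genes held 55.7 ± 3.68% of the summed FPKM in AdCtrl+TGF and 53.5 ± 2.31% in AdSirt4+TGF (SD, n = 3; 2-sided exact permutation p = 0.6), and the 4 FOS genes 33.7 ± 3.33% and 34.2 ± 1.91% (exact permutation p = 1). The pair of small MAF genes held 7.20 ± 0.472% and 8.54 ± 0.457% (exact permutation p = 0.1, the smallest the design allows). Gene by gene, the shares of MAFF (4.46% to 5.40%), MAFK (2.74% to 3.15%) and FOSB (1.80% to 2.49%) did not overlap between the groups, each with an exact permutation p of 0.1 and an adjusted p of 0.333 over the 10 genes. For FOSB the groups nearly touched, at 2.112% in AdCtrl+TGF replicate 3 and 2.116% in AdSirt4+TGF replicate 1. JUNB held 25.2% and 21.7%, with an exact permutation p of 0.2, and FOSL2 12.3% and 10.5%, with an exact permutation p of 0.7. The FOSL2 difference of -1.83 percentage points was 0.224 without AdSirt4+TGF replicate 1.

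The spread within the AdSirt4+TGF group differed among the 10 genes. FOS, JUND, FOSL2 and JUNB had the widest spread in AdSirt4+TGF, with coefficients of variation of 29.2% for FOS, 25.2% for FOSL2 and 19.6% for JUNB, against 17.6%, 7.36% and 8.71% in AdCtrl+TGF, where counting error alone would give 1.17%, 0.777% and 1.05%. For all 4 genes the sample farthest from the others was AdSirt4+TGF replicate 1. Its log2 CPM exceeded the mean of replicates 2 and 3 by 0.65 for FOS, 0.61 for JUND and 0.46 for JUNB, and differed by -0.69 for FOSL2. The gene length implied by the deposited tables was 2.41 kb for FOS, 2.21 kb for JUND and slightly less for JUNB, but 7.70 kb for FOSL2, the longest of the family. FOSL1 at 1.92 kb and ATF3 at 2.24 kb went the other way for their length, with differences of -0.30 and -0.18. With the length trend of each library removed, the log2 fold change between the groups was 0.30 for FOS, 0.26 for JUND, -0.021 for JUNB and 0.086 for FOSL2. In this fit 5 genes (FOSB, FOSL1, JUN, MAFF and MAFK) had an unadjusted p under 0.05 in the direction of AdSirt4+TGF, where 7.87% of all genes had one. The groups of 4 of them (FOSB, JUN, MAFF and MAFK) did not overlap, where 13.0% of all genes had AdSirt4+TGF above in this fit.

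**Figure D3:**
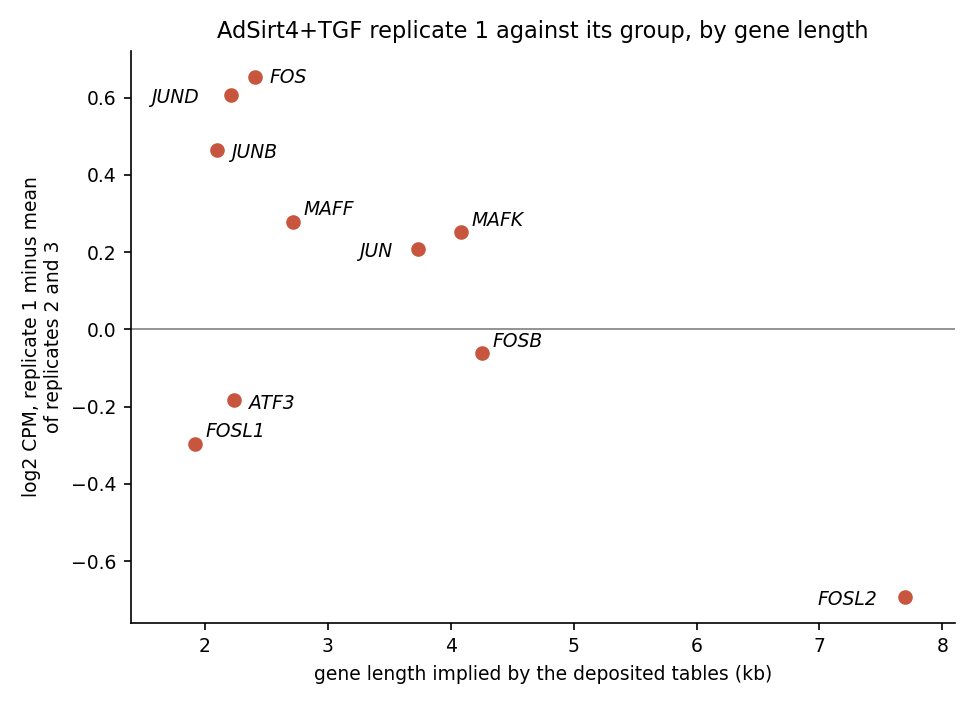
Difference in log2 CPM between AdSirt4+TGF replicate 1 and the mean of replicates 2 and 3 (y axis) against the gene length implied by the deposited tables in kb (x axis), 1 point for each AP-1 gene. FOS, JUND and JUNB lie at 0.65, 0.61 and 0.46, FOSL2 at 7.70 kb lies at -0.69, and the short genes FOSL1 and ATF3 lie below 0.

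Without AdSirt4+TGF replicate 1, 7 of the 10 genes had an unadjusted p under 0.05 (the same 6 and FOSL2), all higher, where 11.8% of all genes were higher at this threshold and 12.5% lower. The groups of the same 7 genes did not overlap, as held for 20.4% of all genes. Then 5 genes, FOSL1, JUN, ATF3, MAFF and MAFK, also had an adjusted p under 0.05 in edgeR, all in the direction of AdSirt4+TGF, where 3.37% of all genes had one in that direction and 3.34% in the other. Their adjusted p-values were 0.00974, 0.0318, 0.0116, 0.00717 and 0.0138 in that order, and FOSB followed with 0.0523. None of the other 5 samples, left out in turn, gave an AP-1 gene with an adjusted p under 0.05 in edgeR. When the replicate number entered the fit as a block, the 6 genes kept an unadjusted p under 0.05, where 4.08% of all genes were higher at this threshold, and none had an adjusted p under 0.05. Without AdCtrl+TGF replicate 1, FOSB, FOSL1, MAFF and MAFK had an unadjusted p under 0.05, 4 of the 10 genes, where 2.06% of all genes were higher at that threshold, and 6 genes had groups that did not overlap, where 12.4% of all genes did so. The shares of all genes with an unadjusted p under 0.05 in either direction, against which the counts for the related lists are to be read, were 7.93% with all 6 samples, 7.20% with the replicate block, 3.70%, 4.60% and 4.11% without AdCtrl+TGF replicate 1, 2 or 3, and 24.3%, 5.92% and 8.35% without AdSirt4+TGF replicate 1, 2 or 3.

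Differences in the wider bZIP family lay about evenly on both sides of 0. Of 30 other bZIP genes, among them the ATF, CREB, large MAF, NRF, BACH and C/EBP genes, 28 were tested, 13 lay above 0 and 15 below, and the median log2 fold change was -0.033. In each direction, 1 gene had an unadjusted p under 0.05, where 4.43% of all genes passed in the direction of AdSirt4+TGF and 3.50% in the other. ATF5, a stress-response factor, was at 14.1 ± 3.12 CPM in AdCtrl+TGF and 19.1 ± 1.17 CPM in AdSirt4+TGF (SD, n = 3), with a log2 fold change of 0.44. ATF2, a partner of JUN on CRE sites, was at 104.2 ± 0.672 and 86.9 ± 7.30 CPM, a log2 fold change of -0.26. Neither had an adjusted p under 0.05 in edgeR on all 6 samples, and the adjusted p of ATF2 was 0.0399 without AdSirt4+TGF replicate 1. CEBPB, a C/EBP factor of the acute phase response, came next at 166.9 ± 9.15 and 136.8 ± 26.4 CPM, with a log2 fold change of -0.29 that was -0.46 without AdSirt4+TGF replicate 1 (edgeR adjusted p = 0.00377, up to 0.971 over the alternatives) and -0.17 without AdSirt4+TGF replicate 2. The count of 2 genes was 8 of 28 without AdSirt4+TGF replicate 1, in a fit where 24.3% of all genes passed, 1 without AdCtrl+TGF replicate 2 or AdSirt4+TGF replicate 2, 0 without AdCtrl+TGF replicate 1 or 3, and 1 with the replicate block.

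Among 40 tested regulators of AP-1 of 41 listed (MAP kinases and their phosphatases, SRF and its cofactors, and proteins that control FOS and JUN mRNA or protein decay), 18 lay above 0 and 22 below, with a median of -0.013. In the direction of AdSirt4+TGF, 6 had an unadjusted p under 0.05, namely the phosphatases of MAP kinases DUSP1, DUSP5, DUSP6 and DUSP10, the p38 effector kinase MAPKAPK2 and the FOS activator SRF, but 4 with the replicate block. Of all genes, 4.43% passed in that direction, 4.08% with the block, and 3.50% passed in the other direction. The other phosphatases on the list, DUSP4 and DUSP16, had log2 fold changes of -0.21 and -0.30 and did not reach this threshold. DUSP4, DUSP16, DUSP6, DUSP10, MAPKAPK2 and SRF were named after their values were seen. DUSP5, a nuclear ERK phosphatase, was at 38.7, 34.8 and 40.3 CPM in AdCtrl+TGF and at 67.3, 62.0 and 59.7 CPM in AdSirt4+TGF. It was higher in every AdSirt4+TGF sample, with a log2 fold change of 0.73 and an SE of 0.10 (edgeR adjusted p = 0.239, from 1.39e-07 to 0.971 over the alternatives). DUSP1 was at 75.2 ± 4.62 and 113.9 ± 25.2 CPM (SD, n = 3), with a log2 fold change of 0.60. It was 0.43 without AdSirt4+TGF replicate 1. The 1 lower gene, ZFP36L1, which binds AU-rich elements and promotes mRNA decay, was at 879.2 ± 73.6 and 658.1 ± 16.2 CPM, a log2 fold change of -0.42. Without AdSirt4+TGF replicate 1, 25 of 41 tested regulators lay above 0 and the median was 0.042. The count of 7 was then 15, in a fit where 24.3% of all genes passed, and it was 3 without AdCtrl+TGF replicate 1 or 2, 4 without AdCtrl+TGF replicate 3 and 5 with the replicate block.

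Genes known as AP-1 targets went both ways. Of 27 listed genes 24 were tested, 17 lay above 0 and 7 below, and the median log2 fold change was 0.16. An unadjusted p under 0.05 was reached by 9 in the direction of AdSirt4+TGF and by 2 in the other, against 4.43% and 3.50% of all genes. None had an adjusted p under 0.05 in edgeR on all 6 samples. Without AdSirt4+TGF replicate 1, 11 higher and 2 lower genes had one, where 3.37% of all genes were called higher and 3.34% lower. In DESeq2, 6 higher and 2 lower genes had one, where 0.711% of all genes were called higher and 0.485% lower. IL6, an inflammatory cytokine, was at 19.2, 19.6 and 25.1 CPM in AdCtrl+TGF and at 43.5, 37.0 and 43.7 CPM in AdSirt4+TGF. HBEGF, an EGF receptor ligand, was at 14.8, 14.6 and 16.5 CPM against 24.4 to 30.3 CPM. IL11, a profibrotic cytokine, was at 6.31, 6.83 and 7.45 CPM against 13.4, 10.7 and 15.3 CPM. In all 3 genes every AdSirt4+TGF sample lay above every control, with log2 fold changes of 0.96, 0.81 and 0.94 and edgeR adjusted p-values of 0.255, 0.255 and 0.310, which over the alternatives ranged from 1.91e-06 to 0.949, from 3.16e-06 to 0.971 and from 0.000152 to 0.971. The 2 lower genes, named after their values were seen, encode other EGF receptor ligands. EREG was at 93.3, 76.4 and 113.9 CPM against 33.1, 35.2 and 52.0 CPM, a log2 fold change of -1.24 (edgeR adjusted p = 0.379, from 8.75e-05 to 0.971 over the alternatives), and AREG was at 26.6, 23.8 and 28.7 CPM against 18.4, 10.7 and 14.3 CPM, a log2 fold change of -0.87 (edgeR adjusted p = 0.494, from 0.000787 to 0.971 over the alternatives). MMP1 and CCND1, also named after their values were seen, had log2 fold changes of 0.75 and 0.63. The count of 11 genes was 18 of 25 without AdSirt4+TGF replicate 1, of which 12 were higher and 6 lower, where 11.8% of all genes were higher and 12.5% lower at this threshold.

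Other immediate early genes were tested in 19 of 20 cases, with 13 above 0, 6 below and a median log2 fold change of 0.24, which was 0.12 without AdSirt4+TGF replicate 1 and 0.14 with sample weights. Of these, 8 had an unadjusted p under 0.05 in the direction of AdSirt4+TGF, namely EGR1, EGR2, EGR3, IER3, KLF10, MYC, RHOB and CCN1, and 1, BTG2, in the other. The shares of all genes were 4.43% and 3.50%. EGR1, EGR2, EGR3, IER3, KLF10 and MYC were named after their values were seen. None of the 19 had an adjusted p under 0.05 in edgeR on all 6 samples. Without AdSirt4+TGF replicate 1, 7 higher and 2 lower genes had one, where 3.37% of all genes were called higher and 3.34% lower. RHOB, a small GTPase, was at 178.2 ± 21.4 and 277.4 ± 50.4 CPM (SD, n = 3), with a log2 fold change of 0.64. It was 0.50 without AdSirt4+TGF replicate 1. CCN1, a matricellular protein induced by YAP and AP-1, was at 1382 ± 28.1 and 2048 ± 429 CPM, a log2 fold change of 0.57. AdSirt4+TGF replicate 1 was its highest sample at 2536 CPM, and without it the log2 fold change was 0.38. BTG2, an antiproliferative gene, was at 10.6 ± 1.10 and 8.09 ± 0.339 CPM, a log2 fold change of -0.39. The count of 9 genes was 4 without AdCtrl+TGF replicate 1 or 2 or AdSirt4+TGF replicate 3, 5 without AdCtrl+TGF replicate 3 or AdSirt4+TGF replicate 2, and 12 without AdSirt4+TGF replicate 1, where 24.3% of all genes passed.

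The genes whose pattern over the 6 samples was most like the median pattern of the 10 genes were not other AP-1 or immediate early genes. Likeness was the mean absolute difference in log2 CPM, each gene centred on its AdCtrl+TGF mean, and 17710 genes were compared. The median pattern was -0.049, -0.023 and 0.098 in AdCtrl+TGF and 0.57, 0.37 and 0.30 in AdSirt4+TGF. CROCC, which encodes a protein of the ciliary rootlet, and GDPGP1 each differed from it by 0.041 on average. PPP1R26-AS1 and NIFK differed by 0.044 and SRSF6, an SR protein of splicing, by 0.045. All 5, and the median pattern, had their highest AdSirt4+TGF value in replicate 1, while FOSB, FOSL1, FOSL2 and ATF3 did not.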

How the data were processed

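Poly(A) RNA of 6 HK2 samples was sequenced as described in the labels. The authors deposited counts per gene, whole numbers that were not normalized, and another table that lists the same 38100 genes and names no unit. The deposited values of the latter were read as FPKM, since for 12226 of the 15894 genes whose count was 10 or more in all samples, and for all 10 AP-1 genes, count and value implied the same length in all samples within 5%. For JUN, JUNB and JUND, which consist of 1 exon, this implied length was 1.15 times the annotated span. The cause of that excess was not tested, so the implied lengths are relative. The submitters' processing notes name fastp 0.21.0, HISAT2 2.1.0, StringTie 2.1.5, DESeq2 1.30.1 and hg38, and the counting settings are not given in the sources used here. Every deposited column could be tied to a sample. The label for the cell line differs by a number from sample to sample, while all titles name HK2.

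Counts were filtered with filterByExpr (minimum count 10), scaled by TMM and compared with edgeR 4.0.16 (robust quasi-likelihood test, group as the only term, Benjamini-Hochberg adjustment over 17720 genes, threshold 0.05) in R 4.3.3. CPM are given as mean and SD, and single values were compared with 2-sided exact permutation tests. A count of 0 allows up to 3 counts, or 0.0348 to 0.0770 CPM, for counting error alone. Replicates were not copies of each other (chi-square per gene 10.1 to 233). Deviations of same-numbered samples from their group means correlated with r = 0.210, 0.154 and 0.255 across genes. Those of other pairs correlated with -0.221 to 0.0546. The labels state no pairing, and these weak correlations do not establish it. The main fit and the permutation tests left the samples unpaired, and the replicate block was run as an alternative. The alternatives were DESeq2 1.42.0, RLE scaling, 2 other filters, the replicate block, removal of each library's trend on gene length by lowess with a span of 0.3, with and without the block, limma 3.58.1 with voom sample weights or on log2(FPKM + 1) or log2(FPKM + 0.1), and each sample left out. The tests were tried on simulated data with 200 changed genes. Promoters and figures were handled with Python 3.11.15, pandas 2.3.3, numpy 2.4.6 and matplotlib 3.10.9.

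The 10 genes and the lists were chosen with earlier results of these data known, and the lists were written from general knowledge. Named beside the 10 genes and SIRT4 were the 3 genes of each list with the smallest unadjusted p and the 5 genes of most similar pattern. Other genes of the related lists are marked as named after their values were seen. Some genes of the lists are not reported here by name.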

Additional observations from a re-analysis of the deposited data

How the results depend on the processing

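The count of AP-1 genes with an adjusted p under 0.05, 0 with edgeR, was 3 with DESeq2, 6 with limma voom and sample quality weights (where 4.37% of all genes were called higher), and 0 to 5 when 1 sample was left out, with 5 only without AdSirt4+TGF replicate 1. It stayed 0 with the replicate block, which changed no call of an AP-1 gene. With 1 sample left out, the count at an unadjusted p under 0.05 was 4 to 7, where 2.06% to 11.8% of all genes were higher at this threshold, and 6 to 7 genes had groups that did not overlap, where 12.4% to 20.4% of all genes did so. The log2 fold change of FOSL2 turned to -0.029 with the replicate block, to -0.062 in limma on log2(FPKM + 1), also with the block or when genes under a mean FPKM of 1 were removed, to -0.064 on log2(FPKM + 0.1), and ranged from -0.11 to 0.19 with 1 sample left out. That of JUNB was -0.021 with the length trend removed, -0.019 with the block added and -0.11 with sample weights, and ranged from -0.11 to 0.17. That of MAFG was 0.011, 0.0070 and 0.064 in the same 3 fits and ranged from -0.17 to 0.094. The cause was not tested. In all, 153 of 180 alternative values of the 10 genes kept direction and side of the threshold, 14 passed it and 13 changed sign. Counting error in AdCtrl+TGF was between 0.777% (FOSL2) and 3.86% (FOSL1) of the level, and the coefficients of variation of these genes were 7.36% and 12.9%.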
